A study of Cricetulus griseus with 24 samples.

Results

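Exponential cultures of the Chinese hamster ovary (CHO) line A1 were compared with exponential cultures of CHO-S by RNA-seq. The members were taken from the labels as the libraries of A1 and of CHO-S at exponential phase, 3 of each, or 6 of the 24 libraries of the series. A1 is the amplified progeny of A0, an antibody-producing clone of CHO DG44 that carries an IgG heavy chain and an IgG light chain on separate plasmids with selection markers. After selection with G418, which was then removed, amplification was by stepwise selection with methotrexate. CHO-S, a line that produces no antibody, served as the negative control.

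Both groups are cultured lines of the same species in the same growth phase, and neither label gives a treatment. A1 is a single amplified line descended from a single clone, so that its differences from CHO-S hold the host strain, the plasmids, the clone and the amplification together, which cannot be told apart. The medium of the A lines was serum-free, with hydrolysate and insulin. The medium of CHO-S, and whether methotrexate was present during these cultures, are not given in the sources used here. The titles of the CHO-S libraries carry the tag NDST, which the labels do not explain. The study describes triplicate batch cultures but no label says that these libraries came from separate flasks, so p-values measure the spread between these samples, which may be technical. In a bulk library, fewer cells with a transcript and less of it per cell cannot be told apart.

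CHO lines share an origin in ovarian tissue of a Chinese hamster and have been kept apart in culture for a long time. DG44 is a host that was derived by mutagenesis and selection. Methotrexate is a folate antagonist, and cells that survive it usually carry more copies of the plasmid and of the antibody gene on it. CHO-S is a suspension line that is used widely as a host.

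Levels are in CPM, the counts-per-million scale with TMM-adjusted library totals, and a log2 fold change is A1 over CHO-S. A gene was called where the edgeR quasi-likelihood test gave an adjusted p under 0.05, with Benjamini-Hochberg adjustment over the 18488 genes tested, and every adjusted p below is of this kind. The A1 libraries held 11823294 to 13060749 counts on genes and the CHO-S libraries 12449462 to 14652646. Of the reads, 8.05% ± 0.577 (SD, n = 3) were not aligned in A1 and 2.33% ± 0.0286 (SD, n = 3) in CHO-S, which differed by 5.73 percentage points (exact permutation test, two-sided p = 0.10, the smallest that 3 against 3 allows). Calls numbered 10568, or 57.2% of the genes tested, with 5551 higher in A1 (30.0%) and 5017 lower (27.1%). The fitted difference was at least 2-fold for 3670 genes (19.9%), with 2098 higher in A1 (11.3%) and 1572 lower (8.50%). With every gene at or under 3 counts in all cultures of a line set to the bound that 3 counts per library give, these were 1668 and 1435. The median log2 fold change over all genes was 0.05 and the median size of the difference, without its sign, was 0.56. The cultures of the lines did not overlap for 11462 genes (62.0%). The biological coefficient of variation was 0.0452, and the smallest fitted difference called was 0.10 on the log2 scale.

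**Figure D1:**
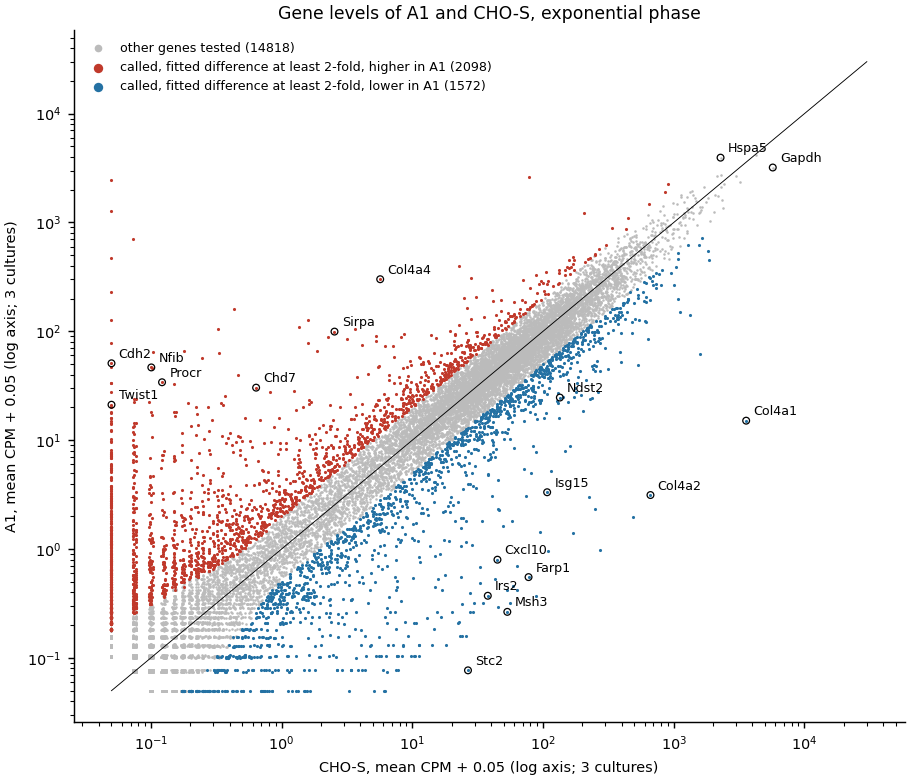
Mean level of each gene tested in CHO-S (horizontal) and A1 (vertical), in CPM plus 0.05 on log axes, 3 cultures each. Red and blue points are genes called with a fitted difference of at least 2-fold, 2098 higher and 1572 lower in A1, and the line marks equal levels. Col4a4 lies far above the line and Col4a1 far below it, and genes with no count in CHO-S stand in a column at the left edge.

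A1 culture 1 held a small number of reads from genes that were otherwise seen in CHO-S. There were 12 genes with at least 20 CPM in CHO-S and at most 1 count in every A0 library and in A1 cultures 2 and 3. A1 culture 1 held 129 counts on them. Cultures 2 and 3, which this choice of genes keeps near 0, held 1 and 0. Their summed level in A1 culture 1 was 1.49% of that in CHO-S, with a range over the genes of 0.303% to 3.39%. Among the 12 were Stc2, Msh3, Zfyve16, Stard4, Irs2, Hoxa7, Hoxa9 and Hoxa10. Results on genes near 0 in the other A1 cultures are therefore given with each culture's counts and also without culture 1.

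The labelled origin was checked against marker genes. Vim, the intermediate filament of mesenchymal cells, had 1176, 1117 and 1226 CPM in A1 and 1193, 1245 and 1220 CPM in CHO-S and was not called (log2 fold change -0.06, adjusted p = 0.26 from edgeR). Of the 11 mesenchymal and cytoskeletal markers tested of 12 in the table, 5 were higher, 5 lower and 1 was not called. Over all genes 30.0% were higher and 27.1% lower. Snai2 was at 0 in both lines. Snai1, a repressor of E-cadherin, was lower in A1 (11.9 against 51.2 CPM, log2 fold change -2.10), and Twist1, a factor of the same programme, was seen in A1 alone, with 20.4, 21.7 and 21.3 CPM against 0 in each CHO-S culture (at least 92.9-fold higher). The epithelial markers summed to 22.2 to 26.2 CPM in A1 and 0.374 to 0.633 CPM in CHO-S. Nearly all of that was Grhl2, an epithelial transcription factor, with 19.7, 22.8 and 23.4 CPM in A1, 0.492, 0.247 and 0.149 CPM in CHO-S and 1.07 to 3.40 CPM in the 4 A0 libraries. Of the 5 epithelial markers tested, 3 were higher in A1 and 0 lower, beside the same shares. Besides Grhl2 these were Epcam (at least 7.83-fold higher) and Cdh1 (at least 2.71-fold). They had at most 23 and 16 counts in any A1 culture. Krt18 and Esrp1 were at 0 in both lines. Leukocyte and endothelial markers summed to at most 6.50 CPM in any of the 6 libraries. Of 8 ovarian follicle markers in the table, Fshr, Inhba and Zp3 were at 0 in both, and the list summed to 27.1 to 29.0 CPM in A1 and 33.5 to 38.8 CPM in CHO-S. Most of that was Star, the steroidogenic cholesterol carrier, at 19.2 CPM in A1 and 31.8 CPM in CHO-S (log2 fold change -0.73), and Inha, an inhibin subunit, was higher in A1, at 6.65 and 1.31 CPM (2.34).

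Msh3, Zfyve16 and Fam151b, which lie near each other in the RefSeq gene table, were transcribed in CHO-S and had almost no counts in A1. Msh3, a mismatch repair gene, had 729, 650 and 738 counts in CHO-S and 8, 0 and 0 in A1. Zfyve16, which codes for an endosomal protein, had 864, 695 and 798 counts in CHO-S and 15, 0 and 0 in A1. Fam151b had 166, 133 and 144 counts in CHO-S and 2, 0 and 0 in A1. All 3 were at 0 in each of the 4 A0 libraries and in stationary A1. Without A1 culture 1, Msh3 was at least 225-fold lower in A1, Zfyve16 at least 249.6-fold and Fam151b at least 46.9-fold. The next genes outward were transcribed in both lines. Zcchc9 had 18.9, 17.6 and 19.02 CPM in A1 and 38.7, 40.9 and 43.6 CPM in CHO-S, with a log2 fold change of -1.15 (SE 0.08, adjusted p = 7.2e-12 from edgeR). Serinc5, on the other side, had 34.9, 32.8 and 34.4 CPM in A1 and 60.1, 57.1 and 56.4 CPM in CHO-S, a log2 fold change of -0.77. Both were lower in every A1 culture than in any CHO-S culture. Ckmt2, Ankrd34b and Spz1, which lie among these genes, were at 0 in both lines.

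**Figure D2:**
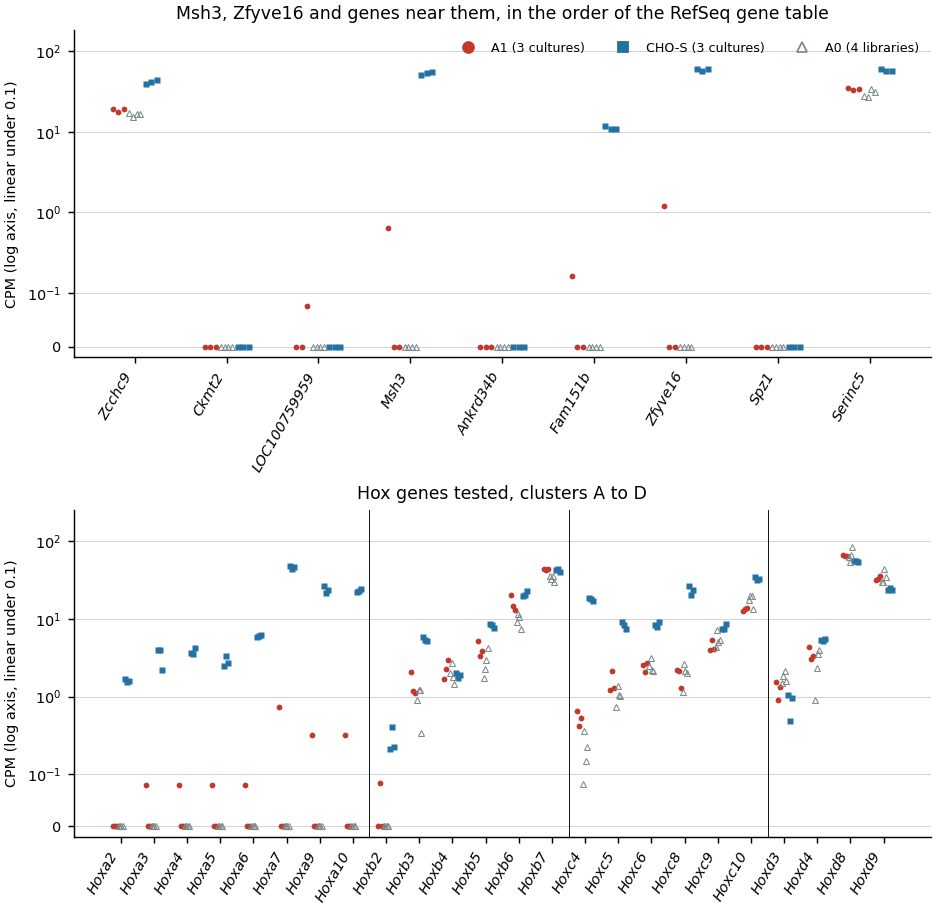
Level of Msh3, Zfyve16 and genes near them (top, in the order of the RefSeq gene table) and of Hox genes tested (bottom, by cluster), in CPM on a log axis that is linear under 0.1. Each point is a library of A1 (3), CHO-S (3) or A0 (4). Msh3, Fam151b and Zfyve16 are present in CHO-S and at 0 in A0 and in A1 cultures 2 and 3, as are the 8 genes of Hox cluster A.

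The table also held entries for hamster antibody genes. Of 119 entries that RefSeq marks as V segments or C regions of immunoglobulin or T cell receptor genes, 118 had at most 3 counts in every CHO-S culture. Of the 15 tested, 10 were higher in A1 and 1 lower, and these entries were picked after their values were seen. This split cannot be set against the shares of all genes. Of the 119, 117 were at 0 throughout CHO-S. Any of these that was tested passed the filter on A1 counts alone and could only be called higher. The summed level of the 119 entries was 653 to 799 CPM in A1 and at most 6.05 CPM in CHO-S. LOC103164411, a V segment, made up most of it in A1, with 637, 782 and 698 CPM, against 1, 0 and 0 counts in CHO-S. Most of the 119 entries stood at or near 0 in A1 too. A1 carries IgG chain genes on plasmids, and whether reads from these were counted on the hamster entries was not tested. The entry that was lower, the C region LOC103161741, had 2.27 ± 0.196 CPM in A1 and 5.78 ± 0.188 CPM in CHO-S (SD, n = 3).

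Genes seen in only one line were defined as those with at most 3 counts in every culture of the other line and at least 5 CPM on average. There were 99 such genes in A1 and 32 in CHO-S, and the folds are lower bounds against 3 counts in each library. The median bound was 47.2-fold for the A1 genes and 31.5-fold for the CHO-S genes. Of the 99 A1 genes, 53 have a symbol, 45 had no count in any CHO-S culture and 70 also averaged at least 5 CPM in A0. The 32 CHO-S genes were at or under 3 counts in every A0 library for 23 genes, and none averaged 5 CPM there. The CHO-S count rose to 68 without A1 culture 1 and the A1 count was then 98. At stationary phase 91 of the 99 A1 genes were at or under 3 counts in every CHO-S culture and 30 of the 32 CHO-S genes were so in A1.

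The 5 highest of the A1 genes have no symbol in the table. LOC103161204 had 2338, 2570 and 2490 CPM in A1 and no count in CHO-S, and averaged 203 CPM in A0. LOC100764764 had 1100, 1531 and 1172 CPM in A1 and no count in CHO-S, and averaged 456 CPM in A0. They were followed by the V segment LOC103164411, which averaged 67.5 CPM in A0, by LOC103164451 (476 CPM in A1 and 32.1 CPM in A0) and by LOC103161203 (231 and 19.1 CPM).

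Among the A1 genes with a symbol, Cdh2, the neural cadherin of cell to cell junctions, was highest. It had 45.9, 56.5 and 50.1 CPM in A1 and no count in CHO-S, at least 224-fold higher, with 54.9 to 71.5 CPM in A0. Kiaa1217 was at least 206-fold higher, and Nfib, a transcription factor of the nuclear factor I family, at least 205-fold higher. Slc9a9, an endosomal sodium and proton exchanger, was at least 204-fold higher, with 42.9, 45.0 and 51.4 CPM in A1. Hes2, a repressor of the Hairy family, was at least 146-fold higher, Creb5, of the CREB and ATF family, at least 122-fold and Dpy19l2 at least 99.2-fold. Procr, the endothelial protein C receptor, was of another kind, since it was almost absent from A0 as well. It had 31.3, 29.4 and 41.3 CPM in A1, 0 to 0.286 CPM in A0 and 2, 0 and 1 counts in CHO-S, at least 149.7-fold higher in A1 than in CHO-S. Calcrl and LOC100773383 were the 2 genes of the 99 at or under 3 counts in every A0 library.

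The 32 CHO-S genes leave out those that passed 3 counts in A1 culture 1 alone, such as Maged1, with 271 CPM in CHO-S and 35, 0 and 0 counts in A1, and Bicc1, with 55.7 CPM in CHO-S and 10, 0 and 0 counts in A1. Of the CHO-S genes with a symbol, Stc2, which codes for the secreted stanniocalcin 2, had 23.3, 28.3 and 28.3 CPM in CHO-S and 1, 0 and 0 counts in A1 (at least 112-fold lower in A1). Znf365 was at least 75.8-fold lower, the F-box gene Fbxl16 at least 58.6-fold and Anks6, a gene of the primary cilium, at least 46.9-fold. Izumo1, known for its part in the fusion of sperm and egg, had 10.4, 10.5 and 10.4 CPM in CHO-S and 2, 0 and 0 counts in A1. Hdgfl3 and Ppm1k, a mitochondrial phosphatase of branched-chain amino acid breakdown, also had 2, 0 and 0 counts in A1 against 9.20 to 10.9 CPM in CHO-S. In A0 none of these genes exceeded 0.357 CPM in any library.

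**Figure D3:**
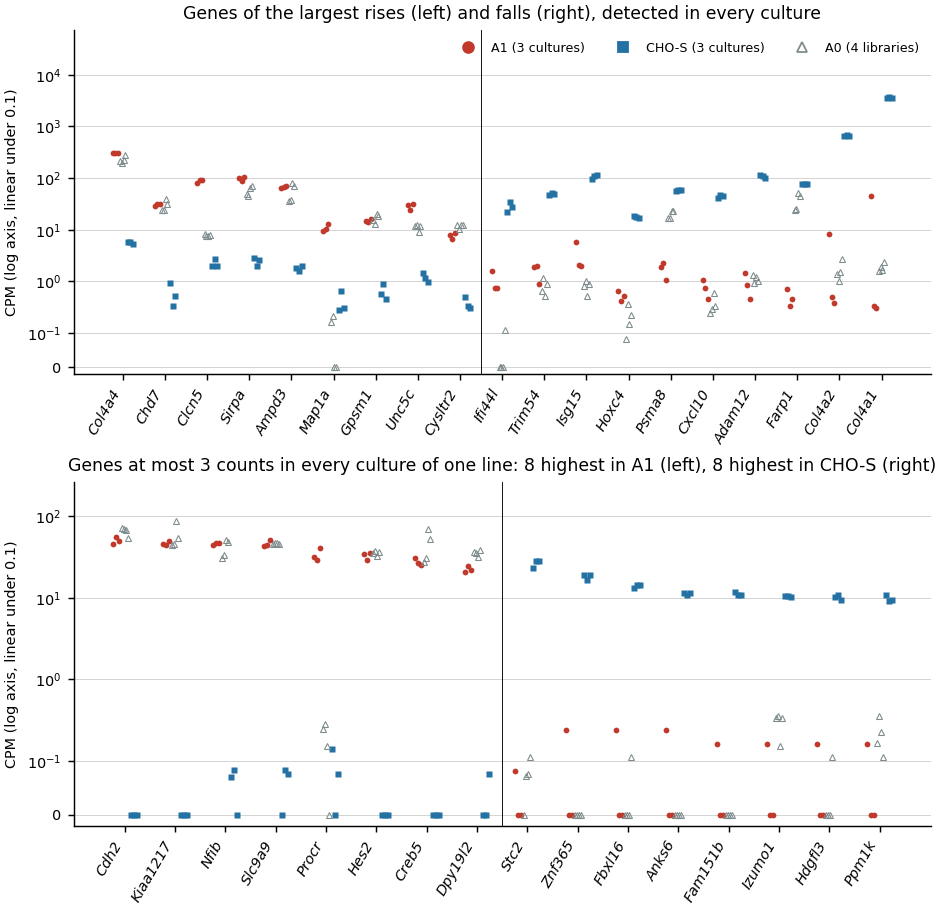
Levels by library of 19 genes with the largest differences among those with more than 3 counts in every culture (top) and of 16 genes with no more than 3 counts in any culture of one line (bottom), in CPM on a log axis that is linear under 0.1. A1 and CHO-S do not overlap for any gene shown, which the choice of these genes largely fixed. A0 (4 libraries) is near CHO-S for Procr and Map1a and between the lines for Clcn5, Farp1 and Psma8. A1 culture 1 stands above cultures 2 and 3 for Col4a1 and Col4a2.

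Neighbouring genes differed together in some places. In 28 runs, 3 or more adjacent tested genes were each called in the same direction with a fitted difference of at least 4-fold, and these held 100 of the 1460 such genes that have a place in the table. The 1460 were among 16329 tested genes with a place. Over all 18488 genes tested, placed or not, the background of genes with such a difference was 6.70% higher and 3.29% lower. The longest run, of 11 genes, was Hox cluster A, whose homeodomain factors set position along the body axis in the embryo. The 8 Hox genes of the cluster that are reported here were each lower in A1, with Hoxa7 at 673, 524 and 612 counts in CHO-S and 9, 0 and 0 in A1. Hoxa9 had 372, 261 and 317 counts in CHO-S and 4, 0 and 0 in A1, and Hoxa10 had 318, 278 and 322 in CHO-S and 4, 0 and 0 in A1. Over the 8 genes, A1 cultures 2 and 3 and the 4 A0 libraries held no count, and culture 1 held 21. Without culture 1, Hoxa7 was at least 191-fold lower in A1, Hoxa9 at least 100.3-fold and Hoxa10 at least 97.4-fold. Hoxa2 to Hoxa6 had between 1.61 and 5.97 CPM in CHO-S, and Mir196b, the microRNA gene inside the cluster, had 2, 8 and 7 counts there and none in A1.

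The other Hox clusters, looked at after these values were seen, were transcribed in both lines. Over all genes 30.0% were higher in A1 and 27.1% lower. In cluster C all 6 genes tested were lower in A1, with Hoxc4 at 0.645, 0.416 and 0.524 CPM against 18.7, 17.9 and 16.8 CPM (log2 fold change -5.05, SE 0.19, adjusted p = 1.7e-16 from edgeR). Hoxc8 had 1.87 against 23.3 CPM and Hoxc10 13.2 against 32.8 CPM. In cluster B, Hoxb7 had 43.5 CPM in A1 and 42.2 CPM in CHO-S and was not called (adjusted p = 0.59 from edgeR), while 4 of 6 genes were lower. In cluster D, Hoxd8 and Hoxd9 were higher in A1, at 64.4 against 55.2 CPM and 33.2 against 23.98 CPM. The summed level of the 8 genes of cluster A was 106 to 113 CPM in CHO-S and 0 to 1.69 CPM in A1, and that of cluster D was 84.5 to 86.6 CPM in CHO-S and 101 to 104 CPM in A1.

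The next longest run, of 5 genes, was higher in A1 and held Dock10, Nyap2 and 3 unnamed genes, of which LOC103163537 had 12.3, 12.8 and 10.6 CPM in A1 and 1, 0 and 0 counts in CHO-S. The third run was 1 of 6 tied at 4 genes, and its choice among them was arbitrary. It was higher in A1 and held unnamed genes alone, of which LOC100756621 had 73.2, 65.8 and 58.2 CPM in A1 and 0, 2 and 3 counts in CHO-S. A0 had both genes, at 13.5 to 23.9 CPM and 51.4 to 71.5 CPM. Of the 28 runs, 20 were higher in A1 and 8 lower, and 26 runs were found without A1 culture 1. The runs rest on fitted folds, and 67 of their 100 genes had at most 3 counts in every culture of the lower line. With such genes set to their bounds, 619 genes higher and 411 lower passed 4-fold over the whole table, against 1239 and 609 by the fitted values.

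Among genes with more than 3 counts in every culture, the largest rises in A1 included genes of several kinds. Col4a4, a basement membrane collagen chain, had 300.5, 300.3 and 302 CPM in A1 and 5.84, 5.75 and 5.31 CPM in CHO-S (log2 fold change 5.74, SE 0.07, adjusted p = 1.6e-25 from edgeR). Chd7, a chromatin remodeller, had 28.3, 31.4 and 31.4 CPM in A1 and 0.914, 0.329 and 0.523 CPM in CHO-S (5.63). Sirpa, the receptor of CD47, had 102, 89.7 and 107 CPM in A1 and 2.88, 1.97 and 2.62 CPM in CHO-S (5.30). Ampd3, an AMP deaminase, had a log2 fold change of 5.19, Gpsm1, a modulator of G proteins, 4.57, Unc5c, a netrin receptor, 4.55 and Cysltr2, a leukotriene receptor, 4.32. For Clcn5 and Map1a, A0 was far below A1. Clcn5, an endosomal chloride and proton exchanger, had 81.9, 91.2 and 90.1 CPM in A1, 1.97, 2.71 and 2.02 CPM in CHO-S and 7.50 to 8.26 CPM in A0 (5.30). Map1a, a microtubule-associated protein, had 9.43, 10.3 and 12.7 CPM in A1, 0.281, 0.657 and 0.299 CPM in CHO-S and 0 to 0.214 CPM in A0 (4.72).

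The largest falls were led by Col4a1 and Col4a2, the main collagen chains of basement membranes, which lie side by side. Col4a1 had 49597, 44585 and 48080 counts in CHO-S and 553, 4 and 4 in A1, and Col4a2 had 9140, 8296 and 8919 in CHO-S and 104, 6 and 5 in A1. Their fitted log2 fold changes, -7.91 (SE 0.49) and -7.76 (SE 0.25), rested on culture 1, and without it they were -13.44 and -10.56. In A0 the genes stood at 1.57 to 2.36 CPM and 1.00 to 2.69 CPM. Irs2, the insulin receptor substrate, follows them in the gene table with Fbxw7 and Pura in between. Irs2 had 508, 497 and 491 counts in CHO-S and 12, 0 and 0 in A1 (at least 159-fold lower without culture 1), but Fbxw7, a subunit of a ubiquitin ligase, was transcribed in both, at 44.7 CPM in A1 and 53.2 CPM in CHO-S. This neighbourhood was looked at after the values were seen.

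Farp1, an exchange factor of small GTPases, had 76.1, 77.7 and 78.6 CPM in CHO-S and 0.725, 0.333 and 0.449 CPM in A1 (log2 fold change -7.24, SE 0.13, adjusted p = 7.7e-22 from edgeR). It was at 24.05 to 52.1 CPM in A0, so that A1 alone was low. Psma8, a proteasome subunit of the germ line, was at 58.1 ± 1.32 CPM in CHO-S, 1.74 ± 0.621 CPM in A1 (SD, n = 3) and 16.7 to 22.8 CPM in A0 (-5.07). Adam12, a membrane metalloprotease, was at 98.7 to 115 CPM in CHO-S and 0.449 to 1.45 CPM in A1 (-6.89). Trim54, a RING finger gene of muscle, differed by -4.97, and the interferon-responsive genes Cxcl10, Isg15 and Ifi44l by -5.90, -5.04 and -4.76. No culture of A1 reached the level of any CHO-S culture for these genes.

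Genes of the interferon response were mostly lower in A1. Of the 32 tested, 24 were lower and 2 higher, against 27.1% and 30.0% of all genes, and 14 were lower by at least 2-fold. The median log2 fold change was -0.84, or -0.70 with genes at the floor set to their bounds. Isg15, a ubiquitin-like modifier, had 94.6, 112 and 116 CPM in CHO-S and 5.80, 2.08 and 1.95 CPM in A1 (log2 fold change -5.04, or -5.75 without culture 1). Ifit2, which binds foreign RNA, had 12.7, 15.8 and 16.4 CPM in CHO-S and 1.05, 0 and 0.150 CPM in A1. Among the factors that drive these genes, Irf7 had 18.7 CPM in CHO-S and 2.43 CPM in A1 (log2 fold change -2.93) and Irf9 66.0 and 22.4 CPM (-1.56). Mx1, an antiviral GTPase, had 81.6 CPM in CHO-S and 22.6 CPM in A1 (-1.85). The 2 higher genes code for sensors of double-stranded RNA. Eif2ak2, the kinase PKR, had 14.3, 14.2 and 16.4 CPM in A1 and no count in CHO-S (at least 65.8-fold higher), and Ifih1, the sensor MDA5, had 15.8, 20.04 and 18.9 CPM in A1 and 0, 0 and 2 counts in CHO-S (at least 80.4-fold higher). Ddx58, the sensor RIG-I, had 16.6 and 16.4 CPM in A1 and CHO-S and was not called.

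Of the 16 lists, the extracellular matrix list had the largest median size of difference, 1.64 on the log2 scale against 0.56 over all genes. Of its 45 genes tested, 23 were lower and 13 higher in A1, against 27.1% and 30.0% of all genes, and the median log2 fold change was -0.58. Its summed level was 5054 to 5399 CPM in A1 and 16372 to 16655 CPM in CHO-S. Apart from the collagen IV chains, Col6a1 had 171, 113 and 144 CPM in A1 and 1342, 1315 and 1319 CPM in CHO-S (-3.21, SE 0.08, adjusted p = 2.2e-19 from edgeR), and Col6a2, its partner chain, had 149 and 1107 CPM (-2.89). Fn1, fibronectin, had 461, 445 and 456 CPM in A1 and 1809, 1931 and 1849 CPM in CHO-S (-2.04). Of the 6 matrix metalloproteases tested in the list, 5 were lower, as was the inhibitor Timp1, with Mmp10 at 1.02 and 23.5 CPM, Mmp9 at 45.3 and 241 CPM, Mmp14 at 70.3 and 299 CPM and Timp1 at 197 and 1087 CPM in A1 and CHO-S. The other, Mmp2, was higher, at 1.97 and 0.368 CPM (2.37). Laminin chains Lama5, Lamb1 and Lamc1 were lower by smaller amounts, with log2 fold changes of -1.20, -0.74 and -0.58. The higher genes were Col12a1 (346, 305 and 336 CPM in A1 and 83.1, 87.5 and 95.1 CPM in CHO-S, 1.89), Fbn1, fibrillin 1 (2.02), Col3a1 (1.53) and Thbs1, thrombospondin 1 (1.30), among others. Col3a1 had 6.40 CPM in A1, 2.21 CPM in CHO-S and 0 to 0.429 CPM in A0.

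Of the 41 integrin and cell adhesion genes tested, which include junction proteins as well as receptors, 18 were higher and 11 lower, against 30.0% and 27.1% of all genes, with a median log2 fold change of 0.22, or 0.16 with bounds. The fibronectin and vitronectin receptor chains Itga5 and Itgb5 were lower in A1, Itga5 with 143, 132 and 153 CPM against 429, 367 and 402 CPM (-1.49) and Itgb5 with 119, 113 and 119 CPM against 367, 386 and 371 CPM (-1.68). Itga3, a laminin receptor chain, was lower by less (-1.01). Itga6, another laminin receptor chain, was higher, with 32.9, 32.8 and 34.1 CPM against 7.17, 7.23 and 9.42 CPM (2.06), and Cdh13, a cadherin without a cytoplasmic domain, was at least 28.5-fold higher.

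**Figure D4:**
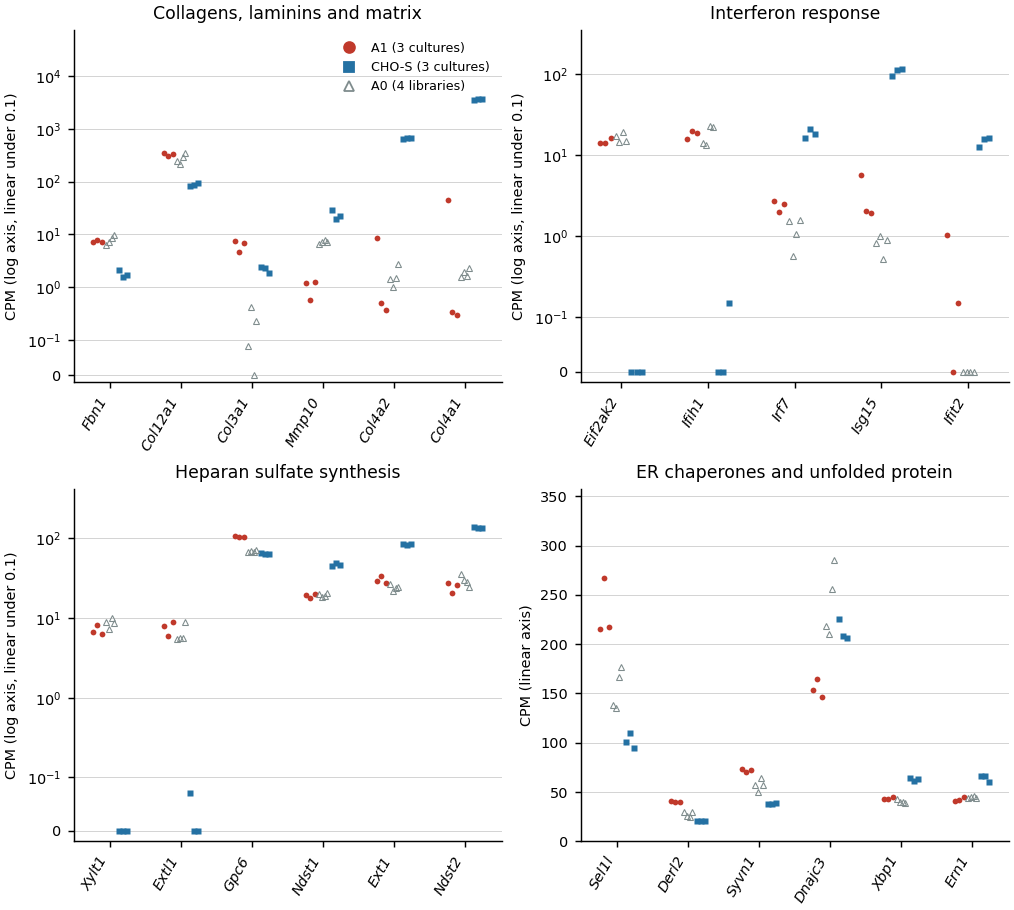
Levels by library of the genes named by rule in 4 lists, in CPM on a log axis that is linear under 0.1, or on a linear axis for the endoplasmic reticulum list. A1 and CHO-S do not overlap for any gene shown, and these were chosen as the largest differences called in each list. Xylt1, Extl1, Eif2ak2 and Ifih1 have at most 2 counts in any CHO-S culture.

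Heparan sulfate genes, which code for the enzymes and core proteins of a sulfated surface sugar, were of interest for the tag in the CHO-S titles. Of the 25 tested, 12 were lower and 7 higher in A1, against 27.1% and 30.0% of all genes, with a median log2 fold change of -0.32. Ndst1 and Ndst2, the N-deacetylase and N-sulfotransferase genes, were present in both lines. Ndst2 had 27.6, 20.5 and 25.6 CPM in A1 and 137, 133 and 134 CPM in CHO-S (-2.45, SE 0.07, adjusted p = 2.1e-18 from edgeR), and Ndst1 had 19.6, 17.6 and 19.99 CPM against 44.9, 48.8 and 46.1 CPM (-1.29). Ext1, which builds the chain, had 29.8 and 84.2 CPM (-1.50), and its partner Ext2 83.7 and 121 CPM (-0.53). Xylt1, which starts the chain on the core protein, had 6.69, 8.23 and 6.36 CPM in A1 and no count in CHO-S (at least 31.2-fold higher), while Xylt2, its paralogue, had 42.3 and 42.0 CPM and was not called. Extl1 was at least 33.5-fold higher in A1, and Gpc6, a glypican core protein, had 103 and 63.6 CPM (0.70).

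N-glycan genes, which shape the sugars of secreted antibody, split evenly. Of 44 tested, 16 were higher and 17 lower, against 30.0% and 27.1% of all genes, with a median log2 fold change of -0.01. B4galt6, a galactosyltransferase, had 7.95, 7.64 and 7.40 CPM in CHO-S and 2, 0 and 0 counts in A1 (at least 32.1-fold lower). The other genes of its family in the list ranged from -0.38 for B4galt3 to 0.27 for B4galt2, with B4galt1 at 0.25. Man2a2, a Golgi mannosidase, differed by -1.15 and Slc35a2, the transporter of UDP-galactose, by -1.04. On the other side stood Gne, the first enzyme of sialic acid synthesis (0.80), Mgat2 (0.74) and Mogs, the glucosidase that begins trimming (0.67). St6gal1 and Mgat3, which CHO cells are known to lack, were at or near 0 in both lines.

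The secretory pathway showed many small differences. Of the 30 endoplasmic reticulum chaperone and unfolded protein genes tested, 18 were higher in A1 and 7 lower, against 30.0% and 27.1% of all genes, and the median log2 fold change was 0.36. Hspa5, the chaperone BiP, had 3692, 4454 and 3678 CPM in A1 and 2387, 2214 and 2242 CPM in CHO-S (0.79, SE 0.06, adjusted p = 1.5e-11 from edgeR). Genes for the removal of misfolded proteins were among the higher ones, with Sel1l at 216, 268 and 217 CPM in A1 and 100.4, 109 and 94.6 CPM in CHO-S (1.20), Derl2 at 39.9 and 20.6 CPM (0.95), Syvn1 at 72.3 and 38.1 CPM (0.92) and Herpud1 at 79.0 and 41.6 CPM (0.92). Hsp90b1 (4715 and 4829 CPM), Calr (2276 and 2411 CPM) and Canx (1211 and 1200.4 CPM), which code for abundant folding proteins, were not called. The stress sensor Ern1 (-0.59), its target Xbp1 (-0.53) and the co-chaperone Dnajc3 (-0.47) were lower in A1. The stress sensors Atf6 (0.35) and Eif2ak3 (0.38) were higher. In the translocon and transport list 21 of 41 were higher (13 with A0 in the fit) and 17 lower, beside the same shares of all genes. The median was 0.11. Srp68, of the signal recognition particle, had 447, 460 and 450.4 CPM in A1 and 165, 174 and 174 CPM in CHO-S (1.40), and Spcs3, of the signal peptidase, 275 and 139 CPM (0.99). Srp9 was higher (0.91), and the cargo receptor Lman1 (-0.62), the translocon-associated Ssr2 (-0.62) and the retrieval receptor Kdelr3 (-0.82) were lower.

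Growth factor and insulin signalling genes were lower in A1 for 20 of 40 and higher for 8, against 27.1% and 30.0% of all genes, with a median log2 fold change of -0.37, or -0.57 with bounds. Pdgfrb, a receptor of platelet-derived growth factor, had 28.4, 21.96 and 27.0 CPM in A1 and 198, 199 and 192 CPM in CHO-S (-2.92, SE 0.07, adjusted p = 2.3e-20 from edgeR). The ligands Figf, now named Vegfd (3.90 and 27.7 CPM, -2.83), Hgf (6.67 and 39.6 CPM, -2.57) and Vegfa (47.9 and 235 CPM, -2.30) were lower too. Igf2r, which clears insulin-like growth factor 2, had 188 and 609 CPM (-1.70). Irs1 was higher in A1, at 53.0 and 38.4 CPM (0.47), while Irs2 was near 0 as given above, and the insulin receptor Insr had 15.1 and 22.5 CPM (-0.57). Fgfr1 had 23.8, 26.1 and 23.7 CPM in A1 and 7.81, 5.999 and 5.53 CPM in CHO-S (1.92). Egfr, with 2.58, 2.83 and 3.29 CPM in A1 and no count in CHO-S, was at least 12.8-fold higher, and Fgfr2 at least 20.5-fold higher.

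Among the metabolic lists, folate and thymidylate genes were higher for 12 of 23 and lower for 5, against 30.0% and 27.1% of all genes, with a median of 0.28. Atic, an enzyme of purine synthesis that uses folate, had 390, 408 and 367 CPM in A1 and 163, 166 and 164 CPM in CHO-S (1.24). Slc25a32, the mitochondrial folate carrier, had 23.3 and 10.9 CPM (1.10). Tyms, thymidylate synthase, had 189 and 158 CPM (0.26). Slc19a1, the reduced folate carrier through which methotrexate enters cells, was lower, at 51.1, 42.8 and 45.8 CPM against 63.4, 61.6 and 58.7 CPM (-0.39). Slc46a1, another folate carrier gene of the list, was higher (1.09). Uptake was not measured.

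Sterol genes were lower for 14 of 26 and higher for 6, against 27.1% and 30.0% of all genes, with a median of -0.15. Lss, lanosterol synthase, had 173 CPM in A1 and 334 CPM in CHO-S (-0.94). Stard4, a cholesterol carrier, had 0.725, 0.0832 and 0 CPM in A1 and 35.3, 36.4 and 31.8 CPM in CHO-S (at least 145.5-fold lower without culture 1). Glycolysis genes were lower for 11 of 21 and higher for 5, beside the same shares, with a median of -0.13, or -0.16 with bounds. Gapdh had 3162, 3227 and 3210 CPM in A1 and 5749, 5734 and 5687 CPM in CHO-S (-0.84, SE 0.04, adjusted p = 2.0e-15 from edgeR), while Pfkp (1.11) and Gpi (0.92) were higher. The other genes of the early steps were mixed. Hk1 (-0.69), Pfkl (-0.48), Pfkm (-0.29) and Tpi1 (-0.13) were lower. Hk2 (0.006) was not called, and Aldoa (0.19) and the glucose carrier gene Slc2a1 (0.39) were higher. Amino acid genes gave 13 higher and 12 lower of 37, against 30.0% and 27.1% of all genes. Got1, an aspartate aminotransferase (20.6 and 83.9 CPM, -2.03), and Slc43a2, a carrier of neutral amino acids (9.62 and 41.3 CPM, -2.10), were at the low end. Gls2, a glutaminase (1.43), was at the high end.

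Glutathione and Nrf2 genes were higher for 19 of 32 and lower for 8 (4 with A0 in the fit), with a median of 0.38. Over all genes 30.0% were higher and 27.1% lower. Ggt1, which breaks down external glutathione, had 8.46, 12.6 and 11.6 CPM in A1 and 0.422, 0.247 and 0.224 CPM in CHO-S (5.13), and Slc7a11, the cystine carrier, had 90.5 and 48.6 CPM (0.90). Against that, Gpx4, the peroxidase of lipid peroxides, had 415, 364 and 398 CPM in A1 and 1037, 1053 and 1046 CPM in CHO-S (-1.41), and Hmox1, heme oxygenase 1, had 995, 1012 and 1059 CPM and 1949.6, 1935 and 1825 CPM (-0.90). ABC transporters were higher for 9 and lower for 10 of 27, against 30.0% and 27.1% of all genes, with a median of 0.01, or -0.06 with bounds. The drug pump genes Abcb1 (-0.79) and Abcb1b (-1.07), which are close paralogues and may share reads, were lower in A1, and Abcc1, which also exports drugs, was higher, at 192 and 95.8 CPM (1.004).

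Regulators of apoptosis were lower for 16 of 34 and higher for 8 (5 with DESeq2 or with A0 in the fit), against 27.1% and 30.0% of all genes, with a median of -0.18, or -0.15 with bounds. Mcl1, an inhibitor of cell death with a short half-life, had 130.3, 126 and 124 CPM in A1 and 560, 547 and 532 CPM in CHO-S (-2.11, SE 0.04, adjusted p = 5.5e-21 from edgeR). Casp1 of the inflammasome (2.14 and 19.3 CPM, -3.17) and the death receptor Tnfrsf1a (-1.10) were lower, while Casp8, the initiator caspase (31.3 and 13.8 CPM, 1.19), and Bcl2 (0.66) were higher. DNA replication genes split, with 16 higher and 14 lower of 41, against 30.0% and 27.1% of all genes, and a median of 0.06. None but Lig1, DNA ligase 1 (102 and 212 CPM, -1.05), differed by 2-fold. Fen1 (0.93), Pola2 (0.85) and Rpa1 (0.66) were higher, and Pola1 (-0.77) and Pole (-0.66) lower.

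**Figure D5:**
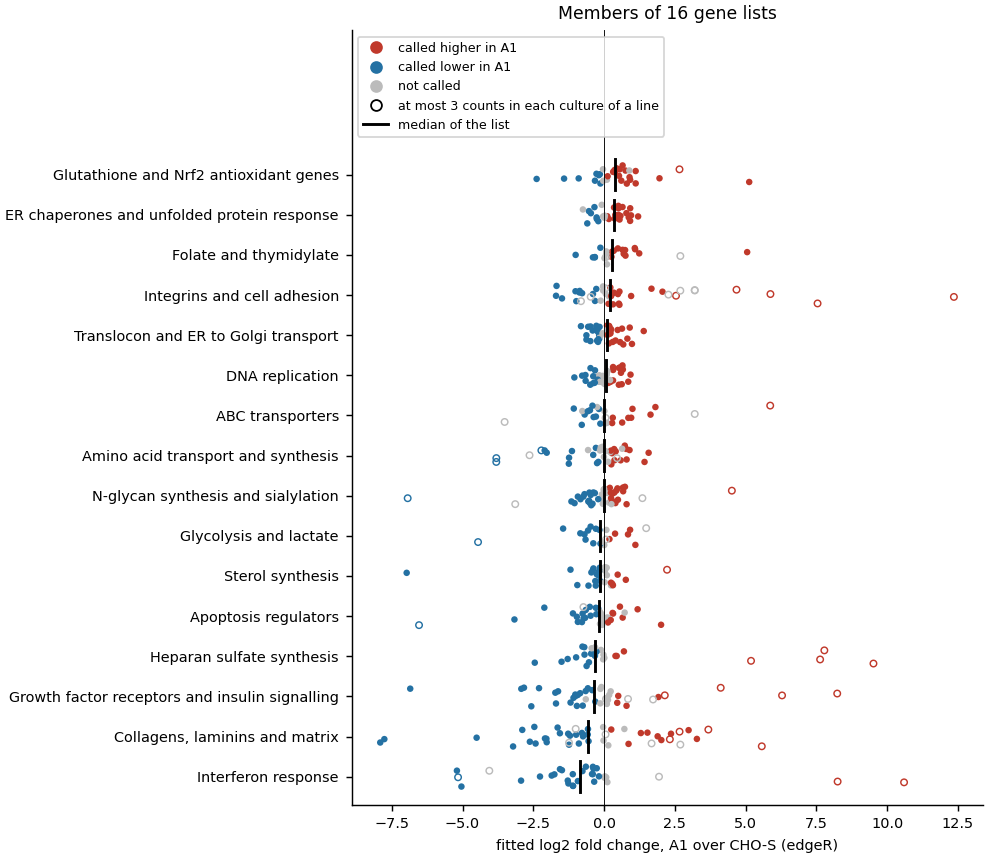
Fitted log2 fold change, A1 over CHO-S, of the members tested in each of 16 lists, with a bar at the median. Open symbols are genes with at most 3 counts in every culture of a line, whose fitted value is not a bound. The interferon list has the lowest median, at -0.84, and the matrix list has the largest median size of difference, at 1.64.

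The genes of interest in the study differed between A1 and CHO-S as follows. The study itself compared A1 with A0, and reported no change of Creb1 mRNA and lower Jun mRNA there. Creb1 codes for a transcription factor that the study found associated with the viral promoter of the plasmids. It had 76.0, 80.8 and 75.2 CPM in A1 and 58.9, 56.3 and 59.7 CPM in CHO-S (log2 fold change 0.41, SE 0.06, adjusted p = 1.2e-06 from edgeR). Jun, of the AP-1 complex, had 60.1, 66.6 and 65.1 CPM in A1 and 26.2, 22.7 and 22.9 CPM in CHO-S (1.41). Actb and Gapdh, which often serve as references, were both lower in A1, Actb by 0.44 on the log2 scale (2350 and 3199 CPM), against a median of 0.05 over all genes. Of the 153 named genes that were called, all had cultures that did not overlap at exponential phase. Many were chosen for a large difference or for no overlap, so this was largely fixed in advance. Over all genes tested, 62.0% did not overlap. At stationary phase the lines did not overlap in the same direction for 129 of the 153 named genes, overlapped for 22 and were in the opposite order for 2. The share over all genes at stationary phase was not counted. One stationary CHO-S library was shallow, with 1038026 counts on genes.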

How the data were processed

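RNA was extracted with an RNeasy kit and libraries were made with a TruSeq stranded mRNA kit. The authors aligned the reads with STAR 2.5.4b to the Chinese hamster genome C_griseus_v1.0, counted them per gene with HTSeq 0.7.2 and deposited whole-number counts without normalization. The strand setting of the counting is not given in the sources used here, so overlapping and antisense genes are uncertain, as are close paralogues. The table held 28037 genes, 24 libraries and 5 summary lines. Library sizes and tests left out the summary lines, and unaligned reads were given as their share of all reads. Each library's depth limits the precision, and bounds and floors cover counting error only.

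The 18488 genes tested had a variance above 0 and 1 count or more in 2 or more of the 6 libraries. They were compared with edgeR 4.0.16 (R 4.3.3), TMM normalization and the quasi-likelihood test of A1 against CHO-S, in a two-sided way. P-values were adjusted after Benjamini and Hochberg, and 0.05 was the threshold. The test was checked on simulated counts with 200 genes changed, each at 5 CPM or more, or with none changed. Far more genes were called here, so that check does not cover the scaling or genes near the floor. The alternatives used DESeq2 1.42.0 and limma 3.58.1, and summaries were made in Python 3.11.15. CPM of A0 and of stationary libraries, scaled against the same reference library, are given as levels only, since A0 would share the CHO-S controls. The floor was 3 counts in each library of a line.

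The comparison, the 16 gene lists and the rules were chosen with earlier results of these data known. Named genes were Msh3 and genes near it, the Ndst genes, the 10 largest rises and falls among genes with a symbol, at least 5 CPM in the higher line and more than 3 counts in every culture, the 8 highest genes of each line alone, up to 3 higher and 3 lower in each list, Gapdh, Actb, Creb1, Hmox1 and Jun, and the 3 longest runs, and others are named as examples from the lists. Some items, single genes among them, are not reported here. Of the list and marker symbols, 52 matched no gene of the table and were not analysed here, among them Ndst3 and Ndst4. The RefSeq gene table (CriGri-PICRH-1.0) matched 24186 gene IDs and gave names and gene order only, since the counts rest on another build. Alternatives covered the tool, the scaling, the gene filter, a replicate block, a fit with A0, the floor and leaving out each culture.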

Additional observations from a re-analysis of the deposited data

Results flagged for a closer look

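Among groups of 4 A0 libraries, checked for 32 genes because the groups of A1 and CHO-S are too small for the test, 3 had a sample far from the others, where chance gives about 1.6 (1 in 20 groups). The gap to the nearest library as a share of the range was 0.833 for Cysltr2, 0.831 for Cdh2 and 0.870 for Izumo1. The A0 libraries enter none of the main tests and only the alternative fit that holds all 3 lines.

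Of 157 entries compared in both growth phases, Pole and Keap1 pointed opposite ways at exponential and stationary phase, with every culture of a line on the same side in each phase. The difference between the phases was not tested. Pole, the catalytic subunit of DNA polymerase epsilon, had 69.0, 69.4 and 68.4 CPM in A1 and 104, 112 and 111 CPM in CHO-S at exponential phase, while at stationary phase the means were 56.1 and 35.2 CPM, a log2 ratio of 0.67. Keap1, which holds Nrf2 in check, had 86.6, 69.3 and 76.4 CPM in A1 and 91.6, 97.5 and 101 CPM in CHO-S, and stationary means of 83.8 and 78.3 CPM, a log2 ratio of 0.098.

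Reads that were not aligned, which no comparison of genes uses, made up 8.05% in A1 and 2.33% in CHO-S at exponential phase. Their sequences were not analysed here.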

How the results depend on the processing

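Of the 153 named genes that were called, 152 kept their direction and their side of the threshold under all 14 alternatives, and Fadd lost its call in 6 of them (log2 fold change 0.18 to 0.33, adjusted p from 0.052 to 0.27). The total of calls was 10568, from 9127 with DESeq2 to 10752 with limma-voom, and 9719 to 10285 when single cultures were left out. The median over all genes stayed within 0.1 of 0 on the log2 scale under every scaling. Same-numbered cultures of the lines did not deviate together (correlations of -0.06, -0.01 and -0.12). This gave no sign that the numbers pair them but cannot exclude it. With a replicate block 10170 genes were called. With a stricter filter on low counts 1305 genes were at least 2-fold higher in A1, against 2098. Apoptosis genes called higher numbered 5 with DESeq2 and 5 with A0 in the same fit, against 8. With A0 in the fit, 13 translocon genes were higher, against 21, and 4 antioxidant genes lower, against 8. Genes seen only in CHO-S numbered 75 with a floor of 10 counts, 3 with a floor of 0 and 68 without A1 culture 1, against 32, and genes seen only in A1 numbered 45 with a floor of 0, against 99. Runs numbered 116 at 2-fold, and 26 without A1 culture 1, an alternative chosen after seeing the data, against 28. The cause of these changes was not tested, apart from the fewer genes that a stricter filter or floor leaves. At these depths 3 counts are on average 0.239 CPM in A1 and 0.227 CPM in CHO-S.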

Other observations

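Other runs of neighbouring genes are given here as examples chosen after their values were seen. Dlx1 and Dlx2, homeobox genes of the Distal-less family, were next to Itga6 in a run that was higher in A1, with 9.21 and 3.87 CPM in A1 and 1.61 and 0.628 CPM in CHO-S. Plag1, a zinc finger transcription factor, was higher together with Chchd7, at 9.38 against 1.03 CPM and 21.5 against 5.22 CPM. Nfib lay between LOC100762803 and LOC103161069 in a run that was higher in A1. Pkp1, a plakophilin of desmosomes, Tnnt2 and Lad1 formed a run with log2 fold changes of 4.92, 2.04 and 2.17. Il11, an interleukin of the IL-6 family, lay in a run that was lower in A1, with 1.76 CPM against 25.8 CPM. Ifit2 was 1 of 4 genes in a run that was lower in A1, in which LOC100772509 had 0.215 CPM in A1 and 20.2 CPM in CHO-S.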
